A study of Rattus norvegicus with 28 samples.

Results

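Msln, Upk3b, Lrrn4, Upk1b and Wt1 mark the mesothelium and the epicardium, the thin mesothelial sheet that covers the heart. They were followed here in rat left ventricle. Members were chosen by gene symbol, and the brightest probe with that symbol alone stood for each gene. Of the 5 genes, 4 had such a probe, 1 probe each, and passed the filter on low values, out of 11493 genes tested in the series. Wt1, the transcription factor of the epicardium, had none and was not analysed here, so the measured members are surface markers of mesothelium.

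Left ventricles of 28 male rats, 1 array each, fell into 3 groups, all taken at 7 weeks of age. The first group, 12 double transgenic rats (dTGR), received BAY 41-8543, a stimulator of soluble guanylate cyclase, at 3 mg/kg/day by gavage from 4 weeks of age. The second, 8 dTGR, received the vehicle of Transcutol, Cremophor-EL and water, and the third, 8 non-transgenic Sprague Dawley (SD) rats, had no treatment. Both dTGR groups carry the human angiotensinogen and renin transgenes of the strain SD-Tg(hAGT)L1623xTg(hREN)L10J and are labelled as a model of heart failure with preserved ejection fraction induced by hypertension. The promoters that drive the transgenes are not given in the sources used here. Genotype cannot be told apart from gavage and vehicle in either comparison with SD. In these bulk biopsies, fewer cells of a type and less RNA per cell cannot be told apart. Each array's title has a number of its own, and the p-values measure the spread between these arrays.

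The epicardium forms from cells that spread over the embryonic heart, and some of them leave the sheet and give rise to fibroblasts and mural cells of the vessels. In the adult it is a quiet layer that secretes lubricating fluid and can take up fetal genes such as Wt1, Tbx18 and Aldh1a2 after injury. Msln encodes mesothelin, a glycoprotein anchored to the cell surface that binds the mucin Muc16. Upk3b and Upk1b encode uroplakins, membrane proteins known from the lining of the bladder, and Upk1b is a tetraspanin. Lrrn4 encodes a membrane protein with leucine-rich repeats that marks mesothelium in mouse.

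Promoters are shown because the genes varied together among arrays of SD and of treated dTGR. In vehicle dTGR 0 of 6 pairs were called as correlated. RefSeq sequences of build GRCr8 were matched by symbol for 3 of the 4 measured genes (Msln had no entry), and the 250 bases before each gene's start are printed 5′ to 3′ on the gene's strand, at chr12:26274241-26274490 (minus strand) for Upk3b, chr3:140603987-140604236 (minus strand) for Lrrn4 and chr11:75459131-75459380 (plus strand) for Upk1b. Capitals mark the motif matches.
Upk3b: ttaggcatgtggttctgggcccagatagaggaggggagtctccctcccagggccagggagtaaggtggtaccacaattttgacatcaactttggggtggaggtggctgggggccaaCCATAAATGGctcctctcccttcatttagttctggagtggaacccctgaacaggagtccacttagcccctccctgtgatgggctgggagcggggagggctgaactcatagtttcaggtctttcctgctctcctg
Lrrn4: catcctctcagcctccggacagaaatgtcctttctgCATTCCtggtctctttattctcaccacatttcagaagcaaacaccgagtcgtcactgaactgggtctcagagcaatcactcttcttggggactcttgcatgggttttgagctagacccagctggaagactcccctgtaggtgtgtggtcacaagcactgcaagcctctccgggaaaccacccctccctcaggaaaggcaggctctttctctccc
Upk1b: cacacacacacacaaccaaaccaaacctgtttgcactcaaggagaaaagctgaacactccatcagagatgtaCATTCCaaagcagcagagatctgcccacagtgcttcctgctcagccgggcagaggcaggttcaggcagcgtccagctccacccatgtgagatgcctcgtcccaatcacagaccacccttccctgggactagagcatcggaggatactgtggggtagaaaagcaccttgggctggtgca
Motifs were searched on both strands. GGAATG, the core read by TEAD factors, lies on the opposite strand (as CATTCC) 214 to 209 bases before the start of Lrrn4 and 178 to 173 bases before that of Upk1b, and 12.1% of all 33469 promoters hold it in this window. Upk3b holds a CArG box, the motif of serum response factor, 134 to 125 bases before its start, as do 1.5% of promoters. GGGCGG (SP and KLF factors, 30.5% of promoters), GCGTGGG (WT1, 3.68%), GATAAG (the core read by GATA factors, 6.18%) and TATAAA (12.9%) were in none of the 3 windows, and no motif was shared by all 3. These matches describe letters only.

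How the markers differ in the transgenic heart is read from vehicle dTGR against SD. Each of the 4 measured genes was lower in vehicle dTGR, by 3.35-fold to 5.05-fold for the 3 genes whose means lay above the filter level in both groups. Of the 8 vehicle arrays, 1 was under that level for Msln, 3 for Upk3b, 4 for Lrrn4 and 2 for Upk1b, and no SD array was. Of all genes tested, 23.8% were called, 11.7% were called lower, 12.1% higher, and 0.983% were called lower by 2-fold or more. A call is an adjusted p (Benjamini-Hochberg over 11493 genes, limma) under 0.05, and levels below are log2 intensities of one probe. The arrays carry no measure of background. The filter level, log2 5.65, was the 30th percentile of all probes and served as the floor.

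Msln lay at 4.92, 6.17 and 6.86 (lowest, median and highest) in the 8 vehicle dTGR and at 7.64, 8.35 and 9.83 in the 8 SD. Every vehicle array was below every SD array, a separation in this direction that 2.11% of all genes showed. The log2 difference was -2.34 ± 0.37 (SE), a 5.05-fold lower level, with adjusted p = 1.64e-05.

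Lrrn4 lay at 3.74, 5.60 and 5.94 in vehicle dTGR and at 6.57, 7.55 and 9.05 in SD. These groups did not overlap either. The log2 difference was -2.42 ± 0.41 with adjusted p = 4.31e-05, and with vehicle arrays below the filter level raised to it, the level was at least 3.76-fold lower. Lrrn4 passed the filter through its mean over all arrays, while its vehicle mean of 5.25 did not reach that level.

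Upk3b lay at 5.31, 5.78 and 6.55 in vehicle dTGR and at 6.37, 8.04 and 9.16 in SD. The groups overlapped through 1 vehicle array above the lowest SD array. Its log2 difference was -2.20 ± 0.34, a 4.61-fold lower level, with adjusted p = 1.38e-05.

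Upk1b lay at 4.75, 6.19 and 6.82 in vehicle dTGR and at 6.70, 7.76 and 8.85 in SD. Here 2 vehicle arrays lay above the lowest SD array. The log2 difference was -1.74 ± 0.34, a 3.35-fold lower level, with adjusted p = 0.000218.

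For each of the 4 genes, 8 of 8 vehicle arrays were below the SD mean. Ordered from the lowest of 11493 differences, Msln stood at place 5, Upk3b at 6 and Upk1b at 19. Lrrn4 stood at place 3 by measured values under the filter level. With every value under that level raised to it, an alternative chosen after seeing the data, Msln stood at place 4, Upk3b at 7, Lrrn4 at 10 and Upk1b at 24. The median difference of the 4 genes was -2.27, or -2.02 with values raised to the filter level, against 0.0033 over all genes tested.

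**Figure D1:**
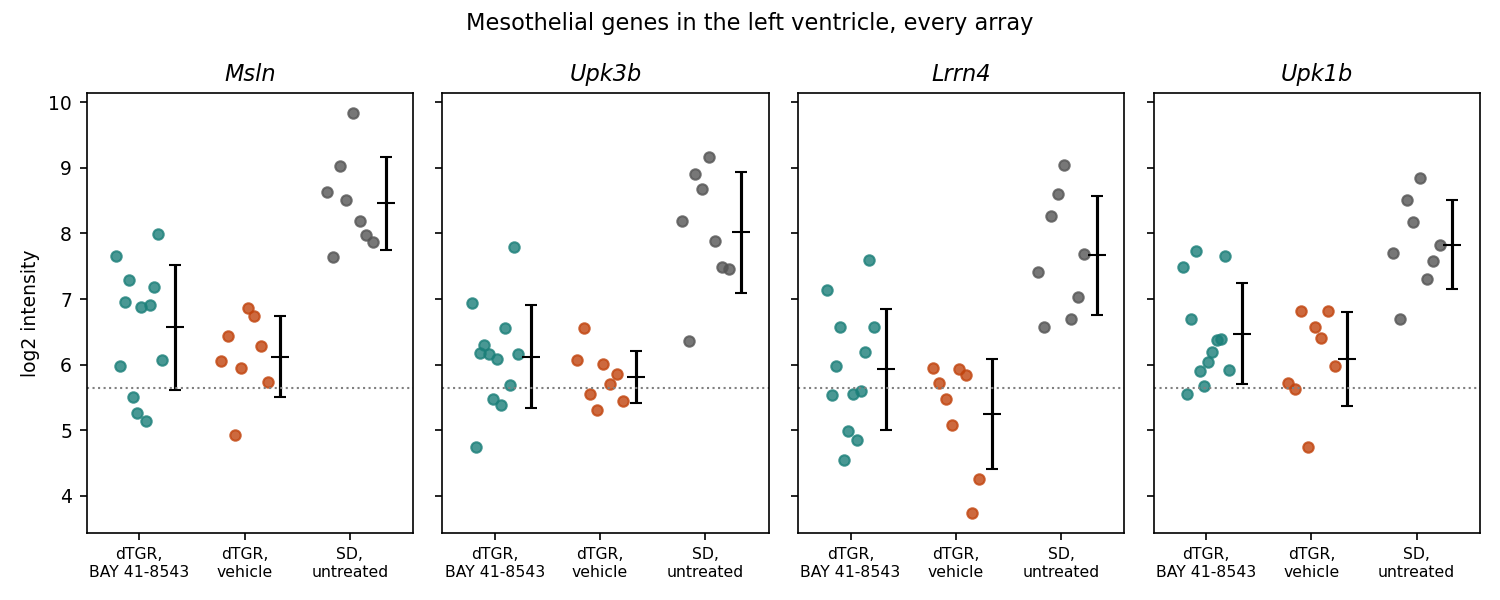
Log2 intensity (vertical axis) of Msln, Upk3b, Lrrn4 and Upk1b in dTGR given BAY 41-8543 (12 arrays), dTGR given vehicle (8) and untreated SD (8). Each point is an array, the black marks are the mean ± SD, and the dotted line is the filter level of 5.65. Both dTGR groups lie mostly between 5 and 7, and SD arrays reach from 6.37 to 9.83.

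Whether the markers differ under the guanylate cyclase stimulator is read from treated against vehicle dTGR. None of the 4 genes was called by limma, and none had an unadjusted p under 0.05 by limma or by the exact permutation test. Of all genes tested, 9.79% were called in this comparison, 5.37% as higher and 4.42% as lower. For 0 of all genes tested did every treated array lie below every vehicle array, and separation in the other direction was not counted. That count of 1125 genes depends on single vehicle arrays: it was 659 without vehicle replicate 4 and 733 without replicate 5.

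Msln lay at 5.15, 6.90 and 8.00 in treated dTGR, against 4.92, 6.17 and 6.86 in vehicle dTGR, and 7 of 12 treated arrays were above the highest vehicle array. The log2 difference was 0.45 ± 0.34 (95% interval -0.24 to 1.13, adjusted p = 0.469). Lrrn4 lay at 4.55, 5.79 and 7.59 in treated dTGR, against 3.74, 5.60 and 5.94 in vehicle dTGR, and 6 of 12 treated arrays were above the highest vehicle array. Its measured log2 difference was 0.68 ± 0.38 (95% interval -0.09 to 1.44, adjusted p = 0.29), with 6 of 12 treated and 4 of 8 vehicle arrays under the filter level. With values raised to that level it was 0.41 ± 0.28 (95% interval -0.16 to 0.97, adjusted p = 0.409).

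For the uroplakin genes, 3 of 12 treated arrays lay above the highest vehicle array. Upk3b lay at 4.74, 6.16 and 7.80 in treated dTGR, against 5.31, 5.78 and 6.55 in vehicle dTGR, with a log2 difference of 0.31 ± 0.31 (95% interval -0.33 to 0.95, adjusted p = 0.619). Upk1b lay at 5.55, 6.28 and 7.74 in treated dTGR, against 4.75, 6.19 and 6.82 in vehicle dTGR, with a log2 difference of 0.38 ± 0.31 (95% interval -0.24 to 1.01, adjusted p = 0.503). Each of these intervals includes 0, also with values raised to the filter level.

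Treated dTGR against SD gives the difference found under treatment. This comparison shares the SD arrays with the vehicle comparison, so its values stand beside those above and are no second source. The 4 genes were called lower here too, where of all genes tested 17.4% were called, 7.87% lower and 9.54% higher. Treated dTGR had a log2 difference from SD of -1.89 ± 0.34 for Msln (3.70-fold lower, adjusted p = 0.000118), -1.89 ± 0.31 for Upk3b (3.71-fold, adjusted p = 4.35e-05), -1.74 ± 0.38 for Lrrn4 (3.34-fold, adjusted p = 0.0011) and -1.36 ± 0.31 for Upk1b (2.57-fold, adjusted p = 0.00182). Of the 12 treated arrays, 3 were under the filter level for Msln, 3 for Upk3b, 6 for Lrrn4 and 1 for Upk1b. With those values raised to it, treated dTGR had a 3.49-fold lower level of Msln, 3.43-fold of Upk3b, 2.84-fold of Lrrn4 and 2.55-fold of Upk1b, each still called. For each gene 12 of 12 treated arrays were below the SD mean. Unlike Msln and Lrrn4 in vehicle dTGR, none of the 4 genes separated the groups fully here (1.19% of all genes tested did so in this direction): treated replicates 1 and 11 lay above the lowest SD array in each of the 4 genes, joined by replicate 9 for Upk3b and replicate 4 for Upk1b.

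Whether the 4 genes shifted by unequal amounts was tested on their log2 ratios within an array, with an exact permutation test over arrays, for 6 pairs in the 3 comparisons. After Benjamini-Hochberg adjustment over these 18 tests, none was called, and 2 had an unadjusted p under 0.05. Those were Upk3b against Upk1b (-0.53, exact permutation p = 0.0281, adjusted p = 0.271) and Msln against Upk1b (-0.53, exact permutation p = 0.0301, adjusted p = 0.271), both in treated dTGR against SD. A ratio within an array shows unequal change only, and these p-values do not show that the shifts were equal.

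The 4 genes also varied together among arrays of SD and of treated dTGR. In SD, replicate 5 was the highest of the 8 arrays and replicate 2 the lowest for every one of the 4 genes. Msln, for example, was 9.83 in SD replicate 5 and 7.64 in SD replicate 2, and Upk3b was 9.16 and 6.37 in the same arrays. In treated dTGR, replicate 11 was among the highest pair of arrays for each of the 4 genes (8.00 for Msln, 7.80 for Upk3b, 7.59 for Lrrn4, 7.66 for Upk1b), and replicate 1 for 3 of them.

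Correlations were computed within each group, since the group means differ, for 6 pairs in 3 groups, with two-sided permutation tests adjusted over these 18. Within treated dTGR (n = 12), Pearson's r was 0.693 to 0.85 and Spearman's rho 0.671 to 0.874, and 6 of 6 pairs were called by either measure (adjusted permutation p at most 0.0172 for r and 0.0392 for rho). Within vehicle dTGR (n = 8), r was -0.138 to 0.486 and rho -0.214 to 0.595, and 0 of 6 pairs were called or had an unadjusted exact permutation p under 0.05 for r. Within SD (n = 8), r was 0.817 to 0.943 and rho 0.738 to 0.976, and 6 of 6 pairs were called by r (adjusted exact permutation p at most 0.0172) and 5 of 6 by rho, the exception being Msln with Lrrn4 (rho 0.738, adjusted exact permutation p = 0.0688).

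Without the 2 arrays farthest from the median of the first gene of a pair, r stayed positive, at 0.554 to 0.849 in treated dTGR and 0.553 to 0.947 in SD. In vehicle dTGR it ran from -0.16 to 0.546 and changed sign for 3 pairs. Whether the correlations differ between groups was not tested. The correlations, and the spread and likeness below, use measured values, also those under the filter level. Of the 12 treated arrays, 3 were under it for Msln, 3 for Upk3b, 6 for Lrrn4 and 1 for Upk1b. None of these measures was computed with values raised to that level.

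**Figure D2:**
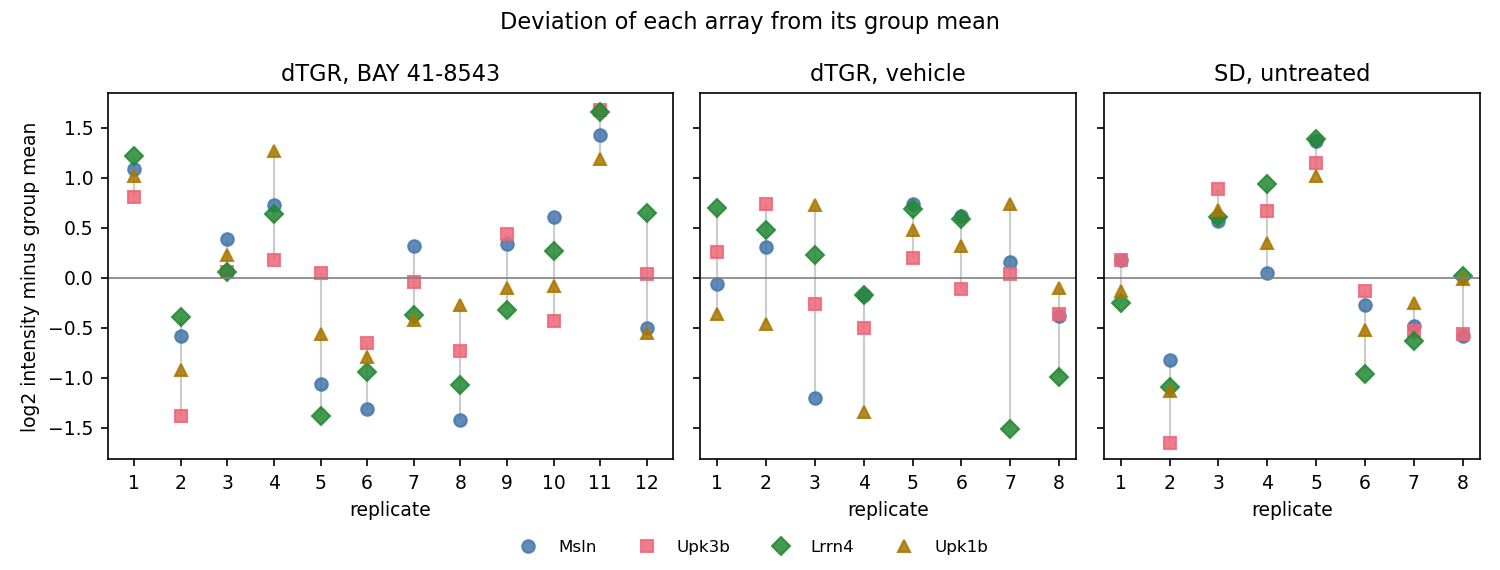
Deviation of each array from its group mean on the log2 scale (vertical axis), by replicate number (horizontal axis), in treated dTGR, vehicle dTGR and SD. The 4 markers of an array are Msln, Upk3b, Lrrn4 and Upk1b, and the grey line spans them. The 4 genes lie on the same side of 0 in 7 of 12 treated arrays, 3 of 8 vehicle arrays and 6 of 8 SD arrays.

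The spread of these genes was wide. The residual SD after removing group means was 0.805 for Msln, 0.743 for Upk3b, 0.897 for Lrrn4 and 0.729 for Upk1b, against a median of 0.276 over all genes tested. Between 97.8% and 99.3% of all genes had a smaller one. Among the 1830 genes with a mean log2 level from 6 to 7, as these 4 have, the median was 0.447 and 95.1% to 98.5% had a smaller SD.

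Likeness to the group was measured as the mean Pearson r with the 4 genes over deviations from group means on all 28 arrays, as a description with no test. The 4 genes had 0.635 (Upk1b) to 0.699 (Upk3b) with one another, while the other 11489 genes had a median of 0.0038 and a 95th percentile of 0.284. The gene most like them was Proca1 (0.63), followed by Arrb2 (0.58), an adaptor of G protein-coupled receptors, Scel (0.56), which encodes sciellin of epithelial cells, Samt2 (0.55), Tas1r3 (0.55), Elp6 (0.54), Zfp362 (0.52), P4ha3 (0.52), a prolyl hydroxylase of collagen, 9530082P21Rikl (0.51) and Wfdc21 (0.51).

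Among those 10 genes, 2 were called in vehicle dTGR against SD, both lower, where 23.8% of all genes tested were called and 11.7% called lower. Wfdc21 lay at 4.38, 6.02 and 6.52 in vehicle dTGR and at 6.61, 7.10 and 8.25 in SD, with no overlap (log2 -1.54 ± 0.40, adjusted p = 0.00398). Scel lay at 5.34, 5.78 and 6.56 in vehicle dTGR and at 5.84, 6.56 and 7.36 in SD (-0.76 ± 0.24, adjusted p = 0.0174). The highest and lowest SD arrays of Scel and Proca1 were replicates 5 and 2, as for the 4 mesothelial genes. Both were picked by their likeness on these same arrays, so shared extremes follow in part from that choice and are no separate evidence. Proca1 (0.06 ± 0.22) and Arrb2 (0.14 ± 0.13) were not called.

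**Figure D3:**
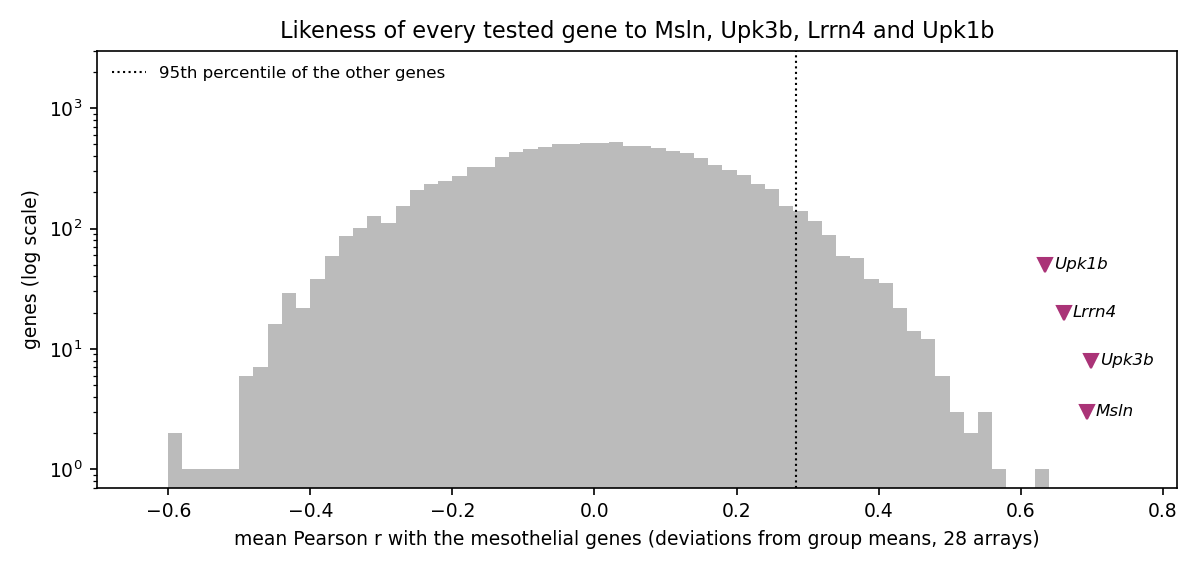
Number of genes (vertical axis, log scale) by mean Pearson r with Msln, Upk3b, Lrrn4 and Upk1b over deviations from group means on 28 arrays (horizontal axis). Triangles give each of the 4 genes against the other 3, at arbitrary heights, from 0.635 to 0.699. The dotted line is the 95th percentile of the other genes, 0.284.

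Of 20 other genes known from mesothelium, 13 were tested, and in vehicle dTGR against SD 1 was called higher, 3 lower and 9 were not called, with a median of 0.09. The shares over all genes tested were 12.1% higher and 11.7% lower. Rspo1, a secreted amplifier of Wnt signalling, was lower (-0.48 ± 0.16, adjusted p = 0.0312), as were the membrane glycoprotein gene Gpm6a (-0.73 ± 0.18, adjusted p = 0.00235) and the matrix gene Efemp1 (-0.65 ± 0.15, adjusted p = 0.00169). Prg4, which encodes the lubricant lubricin, was higher: it lay at 9.67, 10.86 and 12.88 in vehicle dTGR and at 8.13, 8.78 and 9.24 in SD, so that the groups did not overlap (2.22 ± 0.30, adjusted p = 1.37e-06). The share of all genes that separated upward was not counted.

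The keratin genes Krt7 (0.84 ± 0.35), Krt8 (0.46 ± 0.31) and Krt19 (-0.40 ± 0.25) were not called. The SD replicate 5 that was highest for the 4 genes was also the highest SD array for Rspo1, Gpm6a, Efemp1 and Prg4. This was not particular to mesothelial genes: it was also the highest SD array for Vim, Tgfb1 and Upk3bl1, and not for Gata5 or Myl7. Not every mesothelial gene tested was read for this. The highest SD array was another one for Krt7 and Krt8 (replicate 6), Krt19 (replicate 8) and Pdpn (replicate 3), and replicate 5 was the lowest for Krt8. Rspo1 lost its call without SD replicate 5 (-0.34, adjusted p = 0.0869), without SD replicate 8 or vehicle replicates 3 or 4, or with only the 2 groups (adjusted p from 0.0531). Likeness to the 4 genes was above the 95th percentile for Rspo1 (0.49), Efemp1 (0.39) and Pdpn (0.35), which encodes podoplanin, and was -0.04 for Gpm6a and 0.16 for Prg4. It was lowest for Krt8 (-0.25) and Calb2 (-0.15). Between treated and vehicle dTGR 0 of the 13 were called by limma, against 9.79% of all genes tested. In treated dTGR against SD 4 were called higher and 2 lower, where 9.54% of all genes tested were called higher and 7.87% lower. The genes not called between treated and vehicle dTGR include Prg4, at -0.81 ± 0.27 (adjusted p = 0.0554).

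Of 16 genes of the epicardium and its development, 10 were tested, and in vehicle dTGR against SD 1 was called higher, 3 lower and 6 were not called, with a median of -0.23. The shares over all genes tested were 12.1% higher and 11.7% lower. Gata5, a transcription factor of endocardium and epicardium, lay at 10.80, 11.36 and 11.99 in vehicle dTGR and at 12.11, 12.24 and 12.48 in SD, with no overlap (-0.92 ± 0.13, adjusted p = 1.77e-06). The integrin gene Itga4 (-0.67 ± 0.19, adjusted p = 0.00863) and the adhesion gene Alcam (-0.42 ± 0.09, adjusted p = 0.000775) were lower, and the guidance gene Sema3d was higher (0.55 ± 0.14, adjusted p = 0.00286). Tbx18 (-0.22 ± 0.14) and Aldh1a2 (-0.24 ± 0.23), fetal epicardial genes, were not called.

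In treated against vehicle dTGR, 5.37% of all genes tested were called higher and 4.42% lower. Among the epicardial genes, Gata5 (0.60 ± 0.11, adjusted p = 0.00143) and Itga4 (0.66 ± 0.17, adjusted p = 0.0136) were higher there. Tcf21, a transcription factor of epicardium and fibroblasts, was lower (-0.69 ± 0.18, adjusted p = 0.0121). Of these 10 genes Tbx18 (0.40) and Gpc3 (0.41) had a likeness above the 95th percentile, and Gata5 had 0.13.

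**Figure D4:**
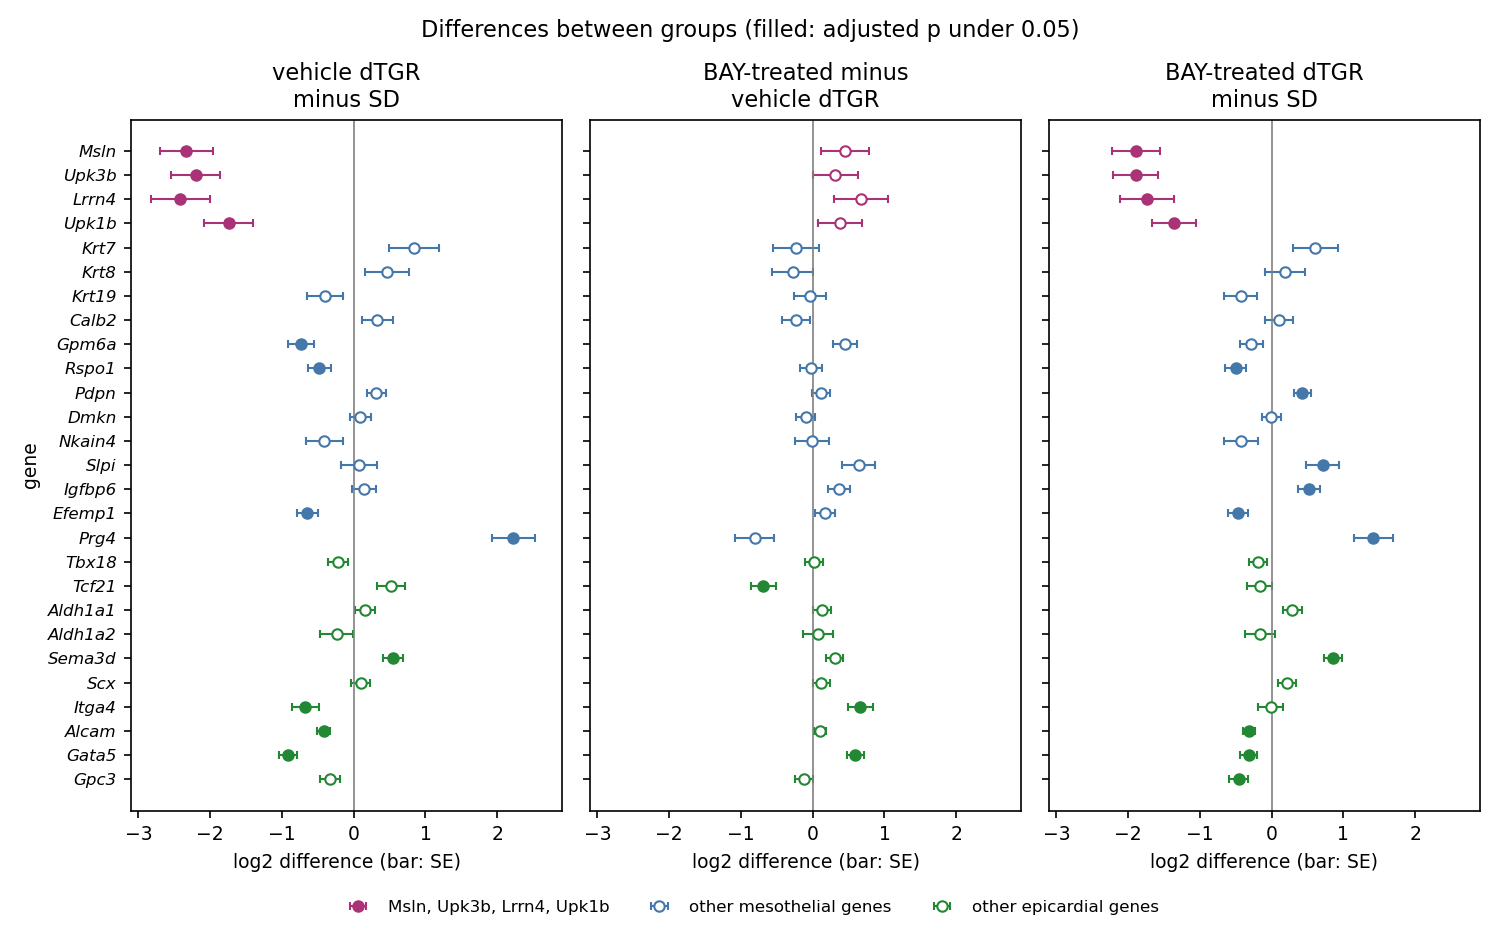
Log2 differences (horizontal axis, bars are SE) of Msln, Upk3b, Lrrn4 and Upk1b and of the other mesothelial and epicardial genes tested, for vehicle dTGR minus SD, treated minus vehicle dTGR and treated dTGR minus SD. Filled points are called by limma. The 4 genes lie between -2.42 and -1.36 in both comparisons with SD, apart from the other genes, of which Prg4 is the highest in vehicle dTGR minus SD at 2.22.

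Relatives and neighbours of the 4 genes were read for comparison. Upk3bl1, the uroplakin-like gene next to Upk3b in the GRCr8 gene order, was not called in vehicle dTGR (-0.06 ± 0.21, adjusted p = 0.891) or in treated dTGR (-0.19 ± 0.19, adjusted p = 0.58) against SD. Ciao3, next to Msln, was called lower in vehicle dTGR against SD (-0.45 ± 0.11, adjusted p = 0.00201) and not in treated dTGR (-0.17 ± 0.10, adjusted p = 0.251). The other 4 neighbours tested, Dtx2 beside Upk3b, Crls1 and Fermt1 beside Lrrn4 and B4galt4 beside Upk1b, were not called in either comparison. Mslnl, on the other side of Msln, was under the filter level, with means of 5.29 in treated dTGR, 5.45 in vehicle dTGR and 5.34 in SD. Of 12 uroplakin, mesothelin and Lrrn relatives and urothelial genes, 5 were tested and 0 called in any of the 3 comparisons by limma. The shares called over all genes tested were 23.8% in vehicle dTGR against SD, 9.79% in treated against vehicle dTGR and 17.4% in treated dTGR against SD. The probes were not checked for cross-hybridization.

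Markers of other tissue that a biopsy could hold were set beside these values. In vehicle dTGR against SD, 12.1% of all genes tested were called higher and 11.7% lower. These shares stand beside each such count in this paragraph and the next. The ventricular myocyte genes tested (8 of 12) had mean log2 levels from 14.85 to 16.85, and 1 was called higher and 3 lower in vehicle dTGR against SD. Of atrial myocyte genes (6 of 8 tested), 1 was called higher and 4 lower in vehicle dTGR against SD. Nppa was the gene called higher, with the largest difference of the list (3.799 ± 0.47, adjusted p = 4.21e-07). Myl7, Kcnj3, Dkk3 and Stard10 were called lower. The mean log2 level of the atrial genes per array was 10.97 to 11.46 in treated dTGR and 10.95 to 11.58 in vehicle dTGR. In SD it was 10.37 to 12.27. These means include Nppa, so they can hide the lower levels of the other atrial genes. The atrial light chain gene Myl7 was lower with the 4 genes in dTGR: it lay at 7.70, 7.94 and 9.59 in treated dTGR, 7.40, 8.47 and 9.36 in vehicle dTGR and at 8.41, 10.24 and 11.59 in SD (vehicle dTGR minus SD -1.77 ± 0.36, adjusted p = 0.00037). Its likeness to them within groups was 0.02, and its highest SD array was replicate 2, the lowest for the 4 genes. Its part in the result was not tested.

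Of adipocyte genes (9 of 12 tested), 1 was called higher and 1 lower in vehicle dTGR against SD, with list means per array of 8.82 to 9.32 in treated dTGR, 8.91 to 9.26 in vehicle dTGR and 9.01 to 9.38 in SD. The epithelial genes Sftpc and Epcam, which would mark lung, were under the filter level, as was the atrial gene Bmp10, and of the 2 lung genes tested 0 were called by limma. Of lymphoid genes (5 of 10 tested), Klrd1 (-1.01 ± 0.22) and Cd3g (-0.78 ± 0.19) were lower in vehicle dTGR against SD, and 0 were higher.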

How the data were processed

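Per the labels, RNA of each ventricle was labelled with biotin for 1-colour whole transcript arrays. The intensity values the authors deposited are linear and already normalized. The submitters' processing notes name RMA, and neither its version nor the scaling is given in the sources used here. Array medians ran from 99.5 to 107, and 0 arrays were identical to another. Precision is limited by how many arrays each group has.

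From these values log2 was taken, and of 36685 probes the 14824 with 1 gene symbol in the platform annotation were used (829 have several, 21032 none). Probes with a mean log2 above the 30th percentile (5.65, intensity 50.2) were kept, and the brightest stood for each gene. A linear model with a mean per group and an intensity trend was fitted to 11493 genes with limma 3.58.1 in R 4.3.3, two-sided, and checked on simulated data. Permutation tests used Python 3.11.15. The members, lists, tests and vehicle replicates named in the alternatives were chosen with earlier results of these data known. Named genes are the members, up to 3 called genes of a list with the largest differences, and the 10 genes most like the members. A list gene named beyond that was chosen after its values were seen. No gene is named for the ventricular myocyte, fibroblast and endothelial lists, and only Fabp4 for the adipocyte list. The lists of fibroblast, endothelial and mesenchymal genes are given in the closing section. The labels give no batch. Permutation tests between groups enumerated every split, also for the group of 12.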

Additional observations from a re-analysis of the deposited data

Results flagged for a closer look

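In 68 groups of 8 arrays checked for an array far from the others, 3 were found, and chance flags about 1 in 20. None was a group of Msln, Upk3b, Lrrn4 or Upk1b. SD replicate 5 had Rspo1 at 10.68, with the next array at 9.89. Vehicle dTGR replicate 6 had Krt19 at 7.21, with the next at 6.32. SD replicate 8 had Tgfb1 at 9.94, with the next at 10.47.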

How the results depend on the processing

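The calls of the 4 genes in the 3 comparisons kept their direction and their side of the threshold under every alternative that gave a value: no filter, a filter at the median, every probe, normalization again, centring, other priors, array weights, only the 2 groups, a pseudocount of 16, each of the 28 arrays left out, vehicle replicates 6 and 7 left out together, the exact permutation test, and, chosen after seeing the data, values under the filter level raised to it. For the exact permutation test the threshold was an unadjusted p under 0.05, so that alternative is less strict than a call. A filter at the median removed Lrrn4, leaving 3 genes called lower against SD. In vehicle dTGR against SD the log2 differences ran from -2.46 to -2.09 for Msln, -2.44 to -1.94 for Upk3b, -2.57 to -1.91 for Lrrn4 and -1.92 to -1.52 for Upk1b. Genes called between treated and vehicle dTGR numbered 1125, 659 (without vehicle replicate 4) to 1558 with 1 array left out, and 2065 without vehicle replicates 6 and 7. Without the 2 arrays farthest from the median, r within vehicle dTGR turned to 0.43 for Msln with Upk1b, -0.16 for Upk3b with Upk1b and 0.55 for Lrrn4 with Upk1b, and the cause was not tested. The same was checked for 39 called differences of list genes and of genes most like the members. Of these, 34 kept their side of the threshold throughout, and 0 changed direction. Not every gene named in the text was among them. Gata5 in treated dTGR against SD, Fabp4 in treated against vehicle dTGR, Tgfb1 in vehicle dTGR against SD and Rspo1 in both comparisons with SD were called and lost the call under at least 1 alternative. Msln, Upk3b, Lrrn4 and Upk1b had 1 probe each, so keeping every probe added no other value for them. No paired analysis was possible because the labels give groups no shared numbers. Levels near the filter level limit what the vehicle and treated arrays can show.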

Other observations

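Of 15 genes of the transition from epithelial to mesenchymal cells, 9 were tested, and in vehicle dTGR against SD 2 were called higher and 0 lower, with a median of 0.09. They were Vim (0.26 ± 0.07, adjusted p = 0.00537), the intermediate filament of mesenchymal cells, and the growth factor gene Tgfb1 (0.35 ± 0.11, adjusted p = 0.0188), which lost its call without SD replicate 8 or without vehicle replicates 6 and 7 (adjusted p = 0.0528 either way). Of 12 fibroblast genes, 11 were tested, with 4 called higher and 1 lower in vehicle dTGR against SD, and of 13 endothelial genes 9 were tested, with 2 higher and 0 lower. The shares over all genes tested in that comparison were 12.1% higher and 11.7% lower. In treated against vehicle dTGR 4 fibroblast genes were called higher and 0 lower, where 5.37% of all genes tested were called higher and 4.42% lower. The endothelial list had 2 higher and 3 lower there, and the list of the transition 2 higher and 1 lower. The median log2 difference was 0.30 for the 11 fibroblast genes and 0.42 for the 4 mesothelial genes, which had no call. With values raised to the filter level, the median of the 4 mesothelial genes was 0.38. Whether these sets differ from each other was not tested.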
